A study of Mus musculus with 31 samples.

Results

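Voltage-gated sodium channel subunits were followed as 9 genes across 31 libraries of ribosome-bound RNA from mouse sensory neurons, their axons and the tissue around them. The 9 genes were taken by name, from a list chosen with earlier results of these data known. Listed were the pore-forming alpha subunits Scn1a, Scn3a, Scn8a, Scn9a, Scn10a and Scn11a and the beta subunits Scn2b, Scn3b and Scn4b. They are 9 of the 55536 genes counted, and all 9 passed the filter on low counts in each of the 9 comparisons fitted.

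RNA was recovered by translating ribosome affinity purification (TRAP), in which ribosomes that carry a GFP-tagged ribosomal protein are pulled down and the RNA bound to them is sequenced. Cre libraries came from Nav1.8-Cre;L10a-eGFP-fl/fl mice. Nav1.8 is the channel encoded by Scn10a, so the gene whose name the Cre carries is itself one of the genes described. Control libraries came from L10a-eGFP-fl/fl mice without Cre, so both genotypes carry the floxed tag and the controls give what the pulldown recovers without Cre. Batch 1 held central axons (lumbar dorsal roots with spinal cord) and somas (lumbar dorsal root ganglia), with 4 Cre and 4 control libraries of each. Batch 2 held peripheral axons (sciatic nerve), with 4 Cre and 3 control libraries, and further somas, with 4 and 4. Age and sex of the mice are not given in the sources used here, nor whether a library pools animals, so the p-values measure the spread between libraries, which the labels call biological replicates.

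A sodium channel is one large alpha subunit, which forms the pore and opens when the membrane depolarises, with smaller beta subunits that alter its gating and its placement in the membrane. Nociceptors, the pain-sensing neurons of the ganglion, are known for alpha subunits that the toxin tetrodotoxin barely blocks: NaV1.8 (Scn10a), which carries most of the upstroke of their action potential, and NaV1.9 (Scn11a), which sets a persistent current near rest. The tetrodotoxin-sensitive NaV1.7 (Scn9a) amplifies small depolarisations in the same neurons, whereas NaV1.1 (Scn1a) and NaV1.6 (Scn8a) are prominent in larger, myelinated sensory neurons and in the central nervous system, and NaV1.3 (Scn3a) is known as the embryonic channel of the ganglion.

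The division into sensitive and resistant channels used below can be read in a single codon. For 5 alpha subunits the 33 bases that code for the pore loop of the first domain are given here, with the codon of the residue known to set tetrodotoxin binding in capitals.
Scn3a: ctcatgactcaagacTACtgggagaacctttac
Scn8a: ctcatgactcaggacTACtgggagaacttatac
Scn9a: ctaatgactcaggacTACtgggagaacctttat
Scn10a: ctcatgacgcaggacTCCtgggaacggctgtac
Scn11a: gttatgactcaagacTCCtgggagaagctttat
These sequences were read from the GENCODE M21 transcripts (assembly GRCm38), and each lies in exon 9 of its coding transcript. The codon is tyrosine 384, 371 and 362 in Scn3a, Scn8a and Scn9a, an aromatic residue. It is serine 356 in Scn10a and serine 385 in Scn11a. Between any 2 of the 5 stretches 24 to 30 of the 33 bases were identical, and Scn10a and Scn11a, the resistant pair, shared 24.

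In the genome the alpha genes stand in groups. Scn10a (9:119608456-119719322) and Scn11a (9:119753759-119825456) are neighbours on the minus strand of chromosome 9; their pore-loop stretches lie at chr9:119666372-119666404 and chr9:119805665-119805697. Scn1a, Scn3a and Scn9a lie on the minus strand of chromosome 2, with the stretches of Scn3a and Scn9a at chr2:65521798-65521830 and chr2:66548986-66549018. Scn8a lies on the plus strand of chromosome 15, with its stretch at chr15:100971623-100971655. The 3 beta genes are on the plus strand of chromosome 9, where Scn2b and Scn4b are neighbours. No member shared exon bases with another gene on its own strand, and Scn9a alone had such an overlap on the opposite strand (Gm13629, 1.41% of its exon bases), so that reads from the 2 genes cannot be told apart there if counting ignored strand.

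Library totals ran from 3601399 to 19637292 counts. Levels are given per library as CPM (the count scaled to the library total), and levels of different genes are compared only as RPKM (CPM per kilobase of exon). A count of 3, taken as the smallest detectable amount, corresponded to 0.153 to 0.833 CPM. Nociceptor markers were present in every Cre group: the summed level of 8 such genes was 7249 to 11518 CPM in batch 1 Cre somas, 1739 to 8639 CPM in central axon Cre libraries and 997 to 4238 CPM in peripheral axon Cre libraries, with 7257 to 9074 CPM in batch 2 Cre somas. Axon libraries also held RNA of their surroundings. Markers of spinal neurons summed to 131 to 355 CPM in central axon Cre libraries, and Schwann cell markers to 6989 to 17885 CPM in peripheral axon Cre libraries. Among the batch 1 soma controls, library 3 stood apart, with a TMM scaling factor of 0.484 where the other libraries of its batch had 0.850 or more.

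**Figure D1:**
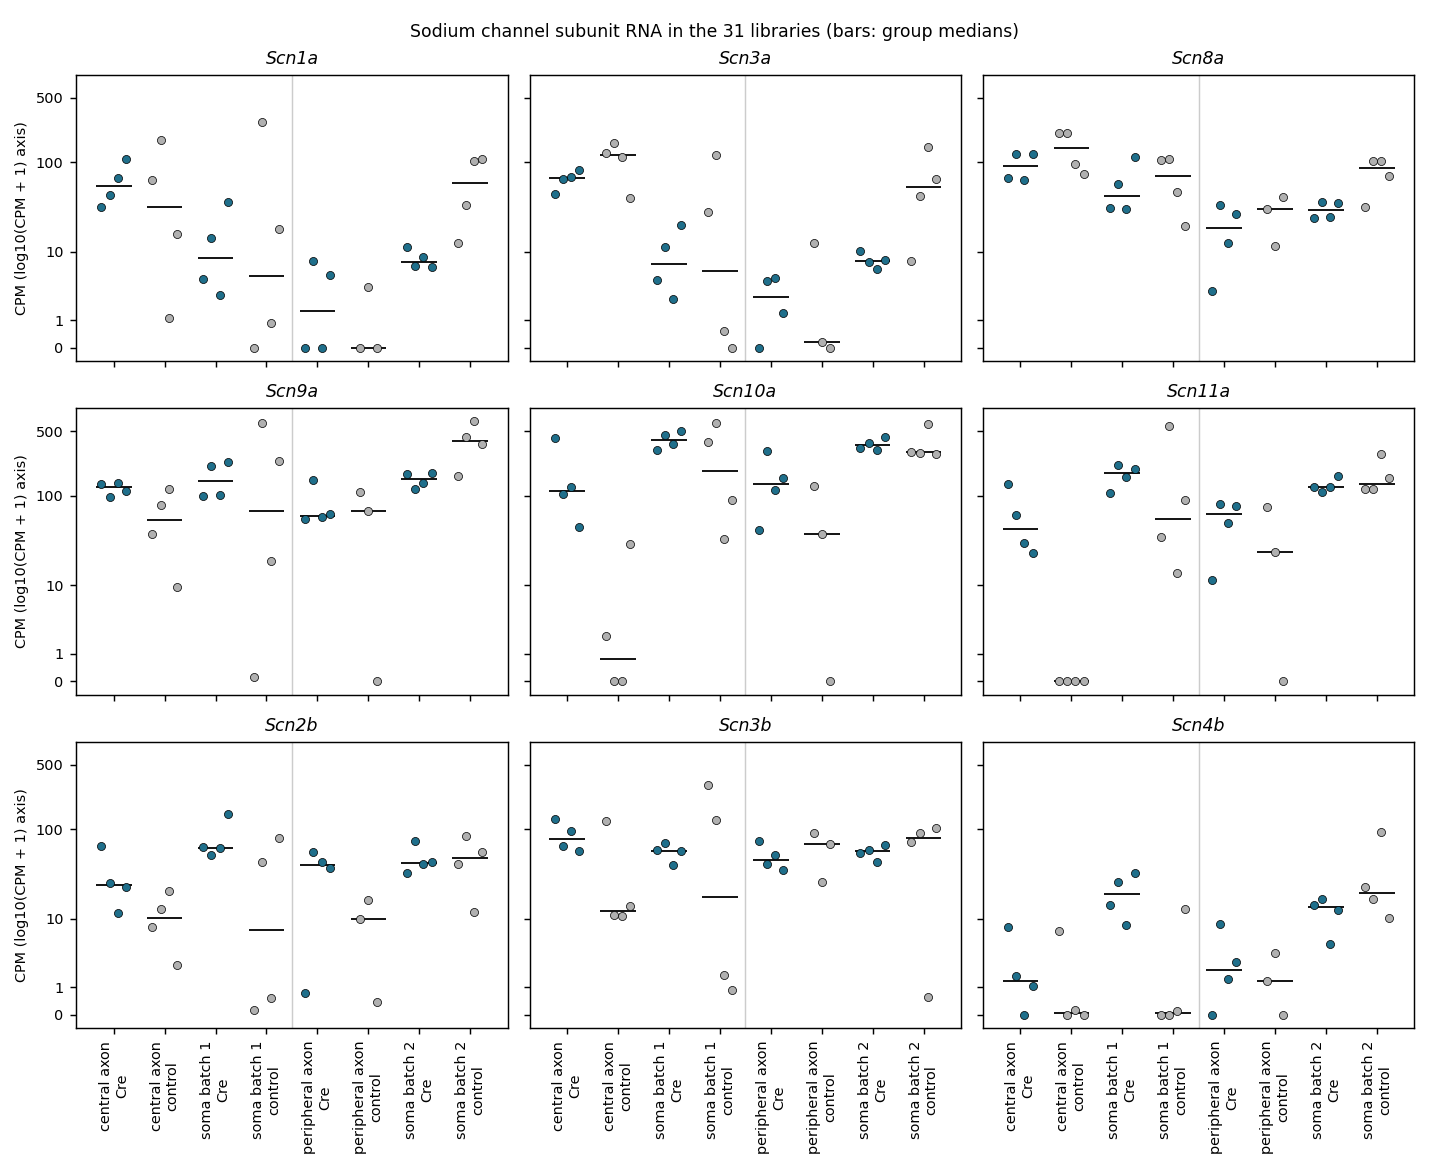
Level of each subunit in the 31 libraries (CPM on a log10(CPM + 1) axis), in 8 groups: blue points are Cre libraries, grey points controls, bars the group medians, and the vertical line separates batch 1 (left) from batch 2 (right). Scn11a is at 0 in all 4 central axon controls and at 23.5 to 136 CPM in the 4 central axon Cre libraries.

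Scn10a, the gene of NaV1.8, was the subunit with the highest mean RPKM in all 4 Cre groups. It was also first in the soma controls without Cre (35.5 RPKM in batch 1 and 46.5 RPKM in batch 2). In batch 1 Cre somas it stood at 312, 461, 362 and 505 CPM in libraries 1 to 4, and in batch 2 Cre somas at 335, 374, 313 and 432 CPM in libraries 5 to 8. These 8 soma libraries lie within a narrow span. In central axon Cre libraries 1 to 4 it stood at 421, 105, 123 and 45.1 CPM. Library 1 reached the range of the somas, and the other 3 fell below it. That library also had the highest nociceptor marker sum of its group (8639 CPM, against 1739 to 3458 CPM in the other 3) and the lowest spinal neuron marker sum (131 CPM, against 259 to 355 CPM). The part of this difference in the results below was not tested beyond leaving library 1 out. In peripheral axon Cre libraries 1 to 4, Scn10a stood at 42.1, 304, 116 and 156 CPM, with library 1 lowest in Scn10a, lowest in nociceptor markers and highest in Schwann cell markers (17885 CPM).

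Scn10a was also present in control libraries, most of all in the ganglion. Soma controls had 383, 625, 33.4 and 89.2 CPM in batch 1 (libraries 1, a, 3 and b; the labels do not tell which of a and b is which replicate) and 303, 295, 598 and 286 CPM in batch 2 (libraries 5 to 8), so that Cre and control somas overlapped. Central axon controls had 2.10, 0, 0 and 29.9 CPM, all below the 4 Cre libraries. Peripheral axon controls had 127, 38.1 and 0 CPM (libraries 1, 2 and 4), which overlapped their Cre group.

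Scn11a, the gene of NaV1.9, followed Scn10a across libraries. It stood at 108, 217, 159 and 196 CPM in batch 1 Cre somas and at 126, 111, 124 and 163 CPM in batch 2 Cre somas. In central axon Cre libraries 1 to 4 it stood at 136, 61.1, 30.1 and 23.5 CPM, and in peripheral axon Cre libraries at 11.4, 81.5, 51.0 and 78.4 CPM. All peripheral axon Cre libraries were below all batch 2 Cre somas, whereas central axon library 1 lay within the range of its somas. The 4 central axon controls held no count of Scn11a, which allows at most 0.242 to 0.384 CPM in them (3 counts per library). In the other controls it reached 14.0 to 567 CPM in batch 1 somas, 119 to 288 CPM in batch 2 somas and 0 to 74.8 CPM in sciatic nerve.

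Across the 16 libraries of batch 1, log2(CPM + 1) of Scn10a and Scn11a had a Pearson correlation of 0.91, and across the 15 libraries of batch 2 one of 0.98. This is a description of libraries that share tissue and genotype, and no other pair of the 9 genes had a higher mean of both values. On the RPKM scale Scn10a stood at 1.58 to 2.16 times Scn11a in batch 1 Cre somas, at 1.88 to 2.51 times in batch 2 Cre somas, at 1.27 to 3.05 times in central axon and at 1.49 to 2.77 times in peripheral axon Cre libraries. The ratio was thus above 1 in all 16 Cre libraries. Without Cre it was 1.37 to 1.89 in batch 2 somas and 0.733 to 8.13 in batch 1 somas. In the 2 sciatic nerve controls with counts of Scn11a it was 1.19 to 1.27. Among non-members, the gene most like Scn10a was Pirt, a regulator of TRP channels in sensory neurons (mean of both correlations 0.93 over 16 and 15 libraries), followed by Lix1 and Ttll7. The genes most like Scn11a were Grik1, which encodes a kainate receptor subunit (0.95), Tmem72 and Stmn2.

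Of the tetrodotoxin-sensitive alpha subunits, Scn9a (NaV1.7) was the most abundant in the Cre groups. Its level was 100, 210, 102 and 233 CPM in batch 1 Cre somas and 172, 117, 137 and 179 CPM in batch 2 Cre somas. It stood at 136, 96.9, 139 and 113 CPM in central axon and at 55.2, 151, 58.3 and 62.9 CPM in peripheral axon Cre libraries. Central axon Cre libraries overlapped with their somas, and peripheral axon Cre libraries lay below theirs except library 2. Controls held much of this RNA too: 9.52 to 118 CPM in central axons, 163 to 648 CPM in batch 2 somas and 0 to 111 CPM in sciatic nerve. In batch 1 soma controls Scn9a spanned 0.123 to 619 CPM.

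Scn3a (NaV1.3) and Scn1a (NaV1.1) had another pattern. Scn3a stood at 44.7, 66.0, 68.4 and 81.8 CPM in central axon Cre libraries and at 4.45, 11.2, 2.42 and 20.2 CPM in batch 1 Cre somas, and these groups did not overlap. Peripheral axon Cre libraries held 0, 4.25, 4.64 and 1.39 CPM and their batch 2 Cre somas 10.1, 7.52, 6.21 and 7.95 CPM, with no overlap in the opposite order. Central axon controls, without Cre, held 128, 163, 114 and 40.7 CPM of Scn3a, so the level seen in central axon Cre libraries was not above the level recovered without Cre.

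Scn1a stood at 32.2, 44.1, 68.0 and 110 CPM in central axon Cre libraries, and at 64.2, 176, 1.11 and 16.0 CPM in their controls. Cre somas held 4.56, 14.4, 2.76 and 36.8 CPM in batch 1 and 6.52 to 11.2 CPM in batch 2. In peripheral axon Cre libraries it was at 0 in 2 of 4 and at most 7.64 CPM in the others. The central axon libraries were thus the high Cre group, with library 1 below the highest soma library.

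Scn8a (NaV1.6, the channel of mature nodes of Ranvier) was more evenly spread. It was 63.9 to 124 CPM in central axon Cre libraries and 75.2 to 211 CPM in their controls. It was 31.1 to 116 CPM in batch 1 and 24.6 to 36.7 CPM in batch 2 Cre somas, and 3.16 to 34.1 CPM in peripheral axon Cre libraries. Cre libraries of each axon overlapped both their somas and their controls.

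Among the beta subunits, Scn2b (which links covalently to the alpha subunit) stood at 63.6, 52.8, 62.1 and 148 CPM in batch 1 Cre somas and at 66.6, 25.7, 11.8 and 23.0 CPM in central axon Cre libraries. Central axon library 1 lay within the soma range and the other 3 below it. In batch 2 it was 33.3 to 74.5 CPM in Cre somas and 0.730 to 56.0 CPM in peripheral axons.

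Scn3b, a non-covalent partner, was level: 40.2 to 71.3 CPM in batch 1 Cre somas, 58.7 to 130 CPM in central axon, 43.4 to 67.6 CPM in batch 2 Cre somas and 35.9 to 74.2 CPM in peripheral axon Cre libraries. Neither axon separated from its somas. Controls ranged wider, from 0.555 to 304 CPM over all 15.

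Scn4b encodes the beta subunit whose intracellular tail is known as the blocking stretch behind resurgent sodium current, the current that flows again on repolarisation. The 42 bases coding for that stretch lie in exon 4 of 5, at chr9:45149352-45149393 on the plus strand of GRCm38, and are shown because this is the beta subunit with the lowest level in axons.
Scn4b: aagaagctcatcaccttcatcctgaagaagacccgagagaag
Scn4b stood at 14.4, 26.1, 8.37 and 33.2 CPM in batch 1 Cre somas and at 8.02, 1.61, 0 and 1.05 CPM in central axon Cre libraries, without overlap. In batch 2 it stood at 14.4, 17.1, 4.84 and 12.8 CPM in Cre somas and at 0, 8.63, 1.46 and 2.77 CPM in peripheral axon Cre libraries. There, axon library 2 overlapped with soma library 7. Counts in the axons were few, at most 130 in a library.

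**Figure D2:**
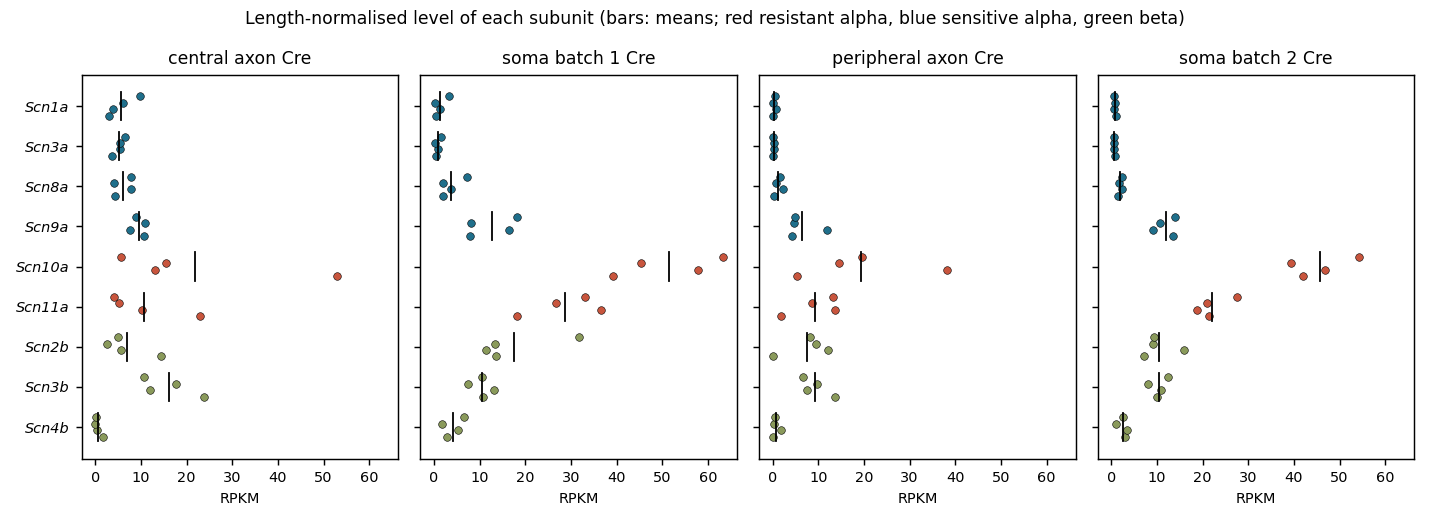
RPKM (x axis) of each subunit in the 4 libraries of each Cre group, with bars for the means: red resistant alpha, blue sensitive alpha and green beta subunits. Scn10a lies highest in both soma panels, at 51.5 RPKM on average in batch 1 and 45.6 RPKM in batch 2.

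Per length, the order of the subunits in the Cre somas was much the same in both batches. Scn10a came first with 51.5 ± 11.1 RPKM (SD, n = 4) in batch 1 and 45.6 ± 6.56 RPKM (n = 4) in batch 2, and its libraries lay above all libraries of Scn11a, with 28.6 ± 8.07 and 22.1 ± 3.74 RPKM. Scn2b, Scn9a and Scn3b followed at 10.3 to 17.5 RPKM on average, each overlapping with the next of the 3, and in batch 1 Scn2b also overlapped with Scn11a. Scn4b (4.12 and 2.46 RPKM) and Scn8a (3.75 and 1.94 RPKM) did not separate from each other. Scn1a (1.31 and 0.738 RPKM) and Scn3a (0.769 and 0.638 RPKM) came last and overlapped.

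In central axon Cre libraries the order was flatter. Scn10a averaged 21.8 ± 21.2 RPKM and Scn3b 16.0 ± 5.97 RPKM (n = 4 each), and Scn10a was above Scn3b in 2 of 4 libraries. Scn11a, Scn9a, Scn2b, Scn8a, Scn1a and Scn3a averaged 10.5 to 5.24 RPKM, each overlapping with the next. Scn4b was last at 0.536 ± 0.728 RPKM, below every library of Scn3a. In the central axon controls the order began with Scn8a (9.38 ± 4.58 RPKM) and Scn3a (8.94 ± 4.12 RPKM, n = 4 each) and ended with Scn11a at 0.

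Peripheral axon Cre libraries kept Scn10a first, with 19.4 ± 13.8 RPKM, above Scn11a (9.37 ± 5.48 RPKM) in all 4 libraries. Scn3b, Scn2b and Scn9a averaged 9.33, 7.43 and 6.40 RPKM. Scn8a, at 1.22 ± 0.882 RPKM (n = 4), was below all libraries of Scn9a. Scn4b, Scn1a and Scn3a averaged 0.646, 0.288 and 0.206 RPKM. With the length of the longest transcript in place of all exon bases, neighbours that overlap changed places and Scn10a stayed first in the 4 Cre groups, while Scn2b moved from rank 5 to rank 8 in central axons.

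**Figure D3:**
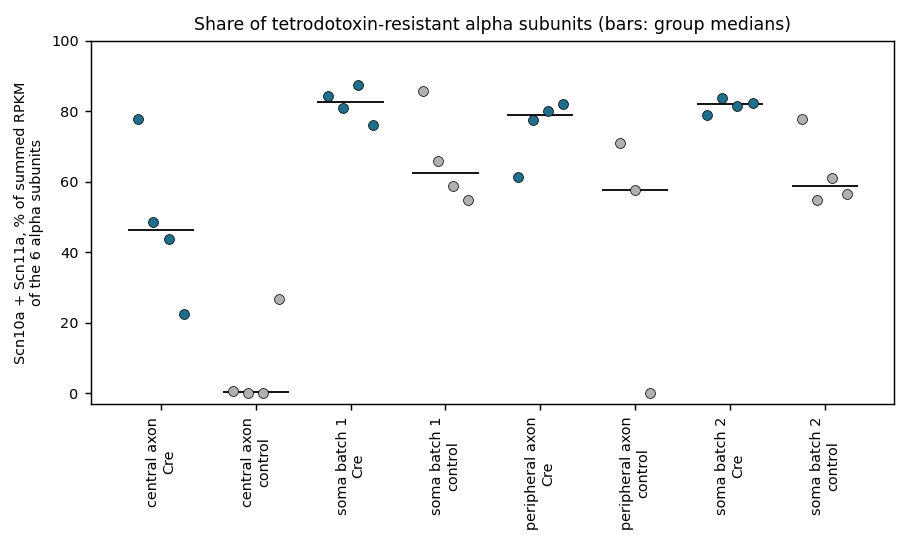
Share of Scn10a and Scn11a in the summed RPKM of the 6 listed alpha subunits (y axis, %), per library in 8 groups, with bars for the medians: blue Cre, grey control. The 8 Cre soma libraries lie between 76.0% and 87.4%, and the 4 central axon Cre libraries between 22.5% and 77.9%.

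The resistant pair made up 82.2 ± 4.91% (SD, n = 4) of the summed RPKM of the 6 listed alpha subunits in batch 1 Cre somas and 81.7 ± 2.02% (n = 4) in batch 2. Other sodium channel genes were left out of the sum, so the shares hold for the listed genes only. Among those left out, Scn7a averaged 12.6 RPKM in batch 1 Cre somas and Scn2a 8.94 RPKM in central axon Cre libraries. In peripheral axon Cre libraries the share was 61.4%, 77.6%, 80.1% and 82.0%, so that 3 of 4 lay within the range of all soma libraries. In central axon Cre libraries it was 77.9%, 48.7%, 43.7% and 22.5%. Library 1 again reached the soma range and the other 3 fell below it. Controls had shares of 54.9 to 77.8% in batch 2 somas, 55.0 to 85.8% in batch 1 somas, 0 to 71.0% in sciatic nerve and 0.808%, 0%, 0% and 26.9% in central axons. Cre and control libraries overlapped in all of these but the batch 2 somas.

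The first set of comparisons asked which subunit RNAs the pulldown recovered above the Cre-negative level. In bulk RNA of this kind, fewer cells or axons of a type and less RNA per cell cannot be told apart. Scn10a and Scn11a were the subunits that stood clear of the controls in central axons, where all 4 Cre libraries exceeded all 4 controls. Of all genes tested there, 6.77% separated in this direction. The controls held no count of Scn11a, so the filter on low counts could keep this gene only through all 4 Cre libraries. The separation of Scn11a thus followed from its being tested and is not weighed against that share. Scn11a was at least 192-fold higher on the mean CPM of the Cre libraries against the mean floor of 3 counts per control library, and at least 61.3-fold higher in the lowest Cre library. Scn10a was higher by 4.52 ± 1.72 on the log2 scale (estimate ± SE, n = 4 and 4).

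Neither passed the threshold of the edgeR test (adjusted p = 0.161 for Scn11a and 0.818 for Scn10a), and no member was called in central axons against controls, where 0.0141% of all genes were. Unadjusted p was under 0.05 for 2 members, Scn11a and Scn10a, and for 4.82% of all genes. DESeq2, which called 1.52% of genes, called 1 member, Scn11a, and limma voom, which called 0.966%, also called Scn11a alone of the 9. With each library left out in turn its edgeR adjusted p lay between 0.0536 and 0.539. Without control library 4, which held 292 counts of Scn10a against 26, 0 and 0 in the other 3, Scn10a was higher by 7.99.

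No difference from central axon controls was called for the other 7 members. Scn9a, Scn2b and Scn3b had estimates of 1.07 ± 0.667, 1.65 ± 1.07 and 1.20 ± 0.896 on the log2 scale, and Scn3a and Scn8a of -0.73 ± 0.513 and -0.61 ± 0.472. Scn1a (0.03 ± 1.06) and Scn4b (0.67 ± 2.12) were near 0 relative to their errors. Without control library 1, Scn3b had an estimate of 2.98 and an adjusted p of 0.0618. Spinal neuron markers summed to 134 to 645 CPM in these controls and 131 to 355 CPM in the Cre libraries, and astrocyte markers to 1329 to 2347 and 296 to 1347 CPM. Their part in the levels of Scn1a, Scn3a and Scn8a was not tested.

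In sciatic nerve no member passed, and 0% of all genes were called by edgeR. No member had an unadjusted p under 0.05, where 3.68% of all genes did. The estimates for Scn10a, Scn11a and Scn2b were 1.59 ± 1.29, 0.85 ± 1.30 and 1.99 ± 1.41 on the log2 scale (n = 4 and 3). DESeq2 and limma voom, which called 0.193% and 0% of genes, also called 0 members there. The controls diverged: library 4 listed Scn9a, Scn10a and Scn11a at 0, which allows up to 0.589 CPM, while library 1 held 127 CPM of Scn10a together with 3421 CPM of nociceptor markers. Skeletal muscle markers summed to 19235 CPM in control library 2 and to at most 2440 CPM in the Cre libraries, and their part was not tested.

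For the resistant channels, Cre somas were not called apart from control somas. In batch 2 the estimates were 0.26 ± 0.286 for Scn10a and -0.09 ± 0.310 for Scn11a, with adjusted p of 0.690 and 0.916 (edgeR). Scaling by library total alone turned the first to -0.03. The sensitive channels were lower in Cre somas of batch 2 in the estimates. Scn1a stood at 6.52 to 11.2 CPM in the Cre and 12.6, 34.0, 103 and 109 CPM in the control libraries, and the groups did not overlap on the scaled values. Of all genes tested, 5.19% separated in this direction.

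For Scn1a the estimate was -2.68 ± 0.633 (adjusted p = 0.0749) and for Scn3a -2.74 ± 0.690 (adjusted p = 0.0873), with Scn9a at -1.12 ± 0.352 (adjusted p = 0.149) and Scn8a at -1.06 ± 0.403 (adjusted p = 0.222). No member was called by edgeR, nor was any gene (0%), and 4 members, these 4, had an unadjusted p under 0.05, as had 16.4% of all genes. DESeq2, which called 7.61% of genes (6.22% lower), called Scn1a and Scn3a lower, and limma voom called 0 members and 0% of genes. Without control library 5, all 4 sensitive channels were called lower, in a fit that called 11.7% of all genes and 5.28% lower. That library had the deepest sequencing of its group (18080478 counts against 3601399 to 4515978) and the lowest sum of large-diameter neuron markers, 382 CPM against 1741 to 2166 CPM in the other 3 and 243 to 352 CPM in the Cre somas. The part of those markers was not tested.

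In batch 1 somas no member passed against controls, where edgeR called 4.42% of genes, and 1 member, Scn8a, had an unadjusted p under 0.05 (estimate -2.84 ± 1.31, adjusted p = 0.329). Its estimate was between -3.29 and -0.56 with each library left out. DESeq2 called 16.3% of genes and limma voom 0%, and both called 0 members.

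**Figure D4:**
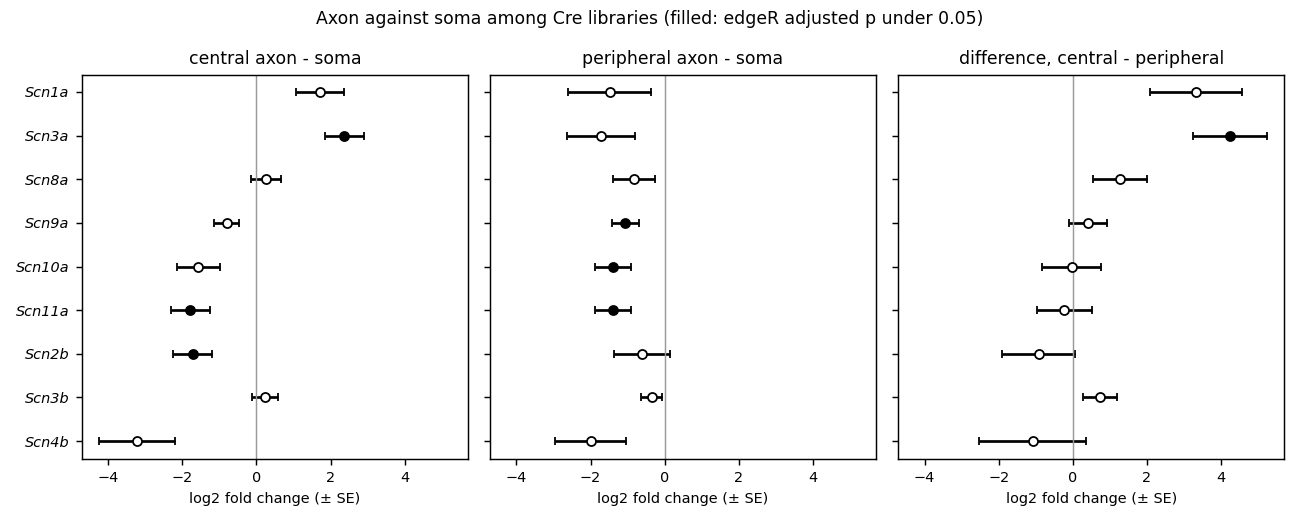
Log2 fold change of each subunit (x axis, bars ± SE) for central axon against soma, peripheral axon against soma, and the difference between both, among Cre libraries (4 per group): filled points have an edgeR adjusted p under 0.05. Scn3a is filled on the right of 0 in the left and right panels.

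The next comparison set axons beside the somas of the same batch, among Cre libraries, and asked which subunit RNAs differ between compartments of the neuron. In central axons Scn3a rose, by 2.37 ± 0.524 on the log2 scale (adjusted p = 0.0119, edgeR, n = 4 and 4), and Scn11a and Scn2b fell, by 1.79 (SE 0.524, adjusted p = 0.0387) and by 1.71 (SE 0.528, adjusted p = 0.0466). These are 3 of 9 members, where 13.7% of all genes were called, and the median of the members was -0.81 against 0.05 for all genes. Of the 8 nociceptor markers 4 fell in the same comparison (Tac1, Trpv1, Mrgprd and Prph), none rose, and their median was -1.35. The part of this in the lower values was not tested. Scn4b (-3.22 ± 1.02, adjusted p = 0.0509), Scn10a (-1.57 ± 0.575, adjusted p = 0.0869) and Scn1a (1.71 ± 0.640, adjusted p = 0.0927) did not reach the threshold. On the scaled values Scn3a was the 1 member with all axon above all soma libraries (13.5% of all genes) and Scn4b the 1 with all below (8.67%). Scn9a had an estimate of -0.81 ± 0.328, and Scn8a and Scn3b of 0.27 ± 0.403 and 0.23 ± 0.348.

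Scn3a was called in all 8 fits that left out a library, and Scn11a and Scn2b in 1 of them, the fit without central axon library 1. Without that library, where 18.1% of all genes were called, Scn10a (-2.74) and Scn4b (-5.05) were called lower as well, and Scn3b had an estimate of -0.21. DESeq2, which called 21.7% of genes, called 2 members higher, Scn3a and Scn1a, and 3 lower, Scn11a, Scn4b and Scn2b, and limma voom, which called 16.3%, called the same 5 in the same directions and Scn10a lower. A fit over all 4 groups of the batch called no member, with adjusted p of 1.00 for Scn3a.

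The rise of Scn3a went with tissue markers. Of the 8 spinal neuron markers, 7 rose in central axons against somas, and their summed level was 131 to 355 CPM against 8.71 to 29.6 CPM, with Slc32a1, Gad2, Slc6a5 and Chat at 0 in all 4 Cre somas. Of the 6 astrocyte markers 5 rose. Scn3a was as high in the central axon controls, as given above. The part of spinal RNA in the rise of Scn3a was not tested.

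In peripheral axons no member rose, and Scn9a, Scn10a and Scn11a fell by 1.06 (SE 0.365), by 1.39 (SE 0.489) and by 1.40 (SE 0.488) on the log2 scale, with adjusted p of 0.0457, 0.0492 and 0.0478 (edgeR, n = 4 and 4). They were 3 of 9 members, where 31.2% of all genes were called in either direction and 12.5% were called lower. All 3 p-values lie close to the threshold. The calls held in 2 of the 8 fits that left out a library, those without peripheral axon libraries 1 or 2, and the other 6 fits called no member. Scaling by library total alone also ended them (adjusted p of 0.0744, 0.0601 and 0.0632). DESeq2 called 4 members lower at 39.6% of genes (19.1% lower), and limma voom 6 at 38.9% (20.6% lower). On the scaled values all axon libraries were below all somas for Scn3a, Scn10a and Scn11a, as for 20.1% of all genes.

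The other 6 members had negative estimates in peripheral axons as well, from -0.35 ± 0.281 for Scn3b to -2.00 ± 0.948 for Scn4b, with Scn1a at -1.48 ± 1.12, Scn3a at -1.72 ± 0.916, Scn8a at -0.83 ± 0.577 and Scn2b at -0.62 ± 0.757. The member median was -1.39 and that of all genes -0.03. All 7 Schwann cell markers rose in the same comparison, from 322 to 591 CPM summed in Cre somas to 6989 to 17885 CPM in peripheral axons, and 5 of 8 nociceptor markers fell. The peripheral axon libraries had 4097863 to 15058971 counts and the somas 15562715 to 19637292. The part of either in the lower values was not tested.

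Whether the excess of Cre over control libraries differed from axon to soma was tested in each batch, and no member was called in either, where 0% (batch 1) and 0.00636% (batch 2) of all genes were called by edgeR. In batch 1, 2 members had an unadjusted p under 0.05, Scn11a (adjusted p = 0.0729) and Scn10a (4.13 ± 1.84, adjusted p = 0.207), where 20.4% of all genes did. DESeq2, which called 3.69% of genes (0.847% higher), and the fits that left out any 1 of the 4 soma controls called Scn11a higher. Those fits called unlike shares of all genes: 0.0123%, 0.00615% and 0.00618% without controls 1, a and b. Without control 3 the share was 6.83% (0.491% higher). Limma voom, at 2.33% of genes (0.0977% higher), called Scn11a and Scn10a higher. The fitted fold of Scn11a is not given because it rests on controls with no counts. In batch 2 no member had an unadjusted p under 0.05, where 9.74% of all genes did, with Scn10a at 1.25 ± 1.29 and Scn11a at 0.86 ± 1.27. DESeq2 and limma voom, which called 2.24% and 0.0127% of genes, called 0 members there.

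Central and peripheral axons were compared through the somas of their own batches, since batch and axon type coincide and cannot be told apart in a direct comparison. Scn3a was the 1 member called, higher in central axons by 4.24 ± 0.993 on the log2 scale (adjusted p = 0.00953, edgeR), where 13.1% of all genes were called. It was called in all 16 fits that left out a library. Only Cre libraries entered this comparison. Central axon controls without Cre held 40.7 to 163 CPM of Scn3a, against 44.7 to 81.8 CPM in the Cre libraries. Peripheral axon Cre libraries 1 to 4 held 0, 64, 19 and 8 counts of it. The part of spinal RNA in this difference was not tested. DESeq2 and limma voom, at 19.7% and 19% of genes (10% and 12.9% higher), called Scn3a and Scn1a higher. Scn1a had an estimate of 3.32 ± 1.24 (adjusted p = 0.0810) and was called in 2 of those 16 fits, without batch 1 soma library 4 or peripheral axon library 2.

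For the resistant channels no difference between the axons was called. The difference was -0.03 ± 0.794 for Scn10a and -0.23 ± 0.749 for Scn11a, errors that leave room for differences of more than 1 log2 unit either way. Estimates were 1.27 ± 0.730 for Scn8a, 0.40 ± 0.504 for Scn9a, -0.92 ± 0.983 for Scn2b, 0.73 ± 0.466 for Scn3b and -1.08 ± 1.44 for Scn4b, none called. The median of all genes in this comparison was 0.26.

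Other sodium channel genes and the proteins that anchor, modulate or remove the channels were counted from fixed lists. Of 6 other sodium channel genes, no tested gene passed against controls in any compartment, where edgeR called 0% to 4.42% of all genes. In central axons against somas, Scn2a (NaV1.2, a channel of central neurons) rose by 2.16 ± 0.452 (adjusted p = 0.00930), and Scn7a, a sodium-sensing relative, fell by 2.51 (adjusted p = 0.0369), of 5 tested. Of all genes, 13.7% were called there. Scn2a held 60.7 to 199 CPM in central axon Cre libraries, 91.1 to 191 CPM in their controls and 9.11 to 27.4 CPM in batch 1 Cre somas, the same order of groups as Scn3a. Scn2a was also the 1 gene of the list called between the axons (3.38 ± 0.772, adjusted p = 0.00820), where 13.1% of all genes were called.

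Of 14 channel partners, 3 rose in central axons against somas (Fgf14, Sptbn4 and Nrcam; 8.63% of all genes were called higher and 5.11% lower) and 1 fell, S100a10, the annexin partner known to bring NaV1.8 to the membrane (-1.73 ± 0.498, adjusted p = 0.0360). Sptbn4, the spectrin of axon initial segments and nodes, rose by 1.98 ± 0.447 (adjusted p = 0.0131). It stood at 29.8 to 113 CPM in central axon Cre libraries and at 104 to 312 CPM in their controls without Cre. Nrcam (43.4 to 67.6 against 28.7 to 135 CPM) and Fgf14 (3.44 to 18.2 against 0 to 22.0 CPM) also overlapped their controls, and the spinal neuron markers given above rose in the same comparison. The part of spinal RNA in these rises was not tested. In peripheral axons 4 of 13 tested rose, the node and scaffold genes Ank3, Nfasc and Nrcam and the ubiquitin ligase gene Nedd4 (18.7% of all genes were called higher and 12.5% lower). All 4 overlapped their controls without Cre, and none was called against them. Cre and control ranges were 313 to 547 and 235 to 353 CPM for Ank3, and 32.3 to 98.8 and 25.7 to 158 CPM for Nfasc. For Nrcam they were 34.7 to 54.0 and 5.40 to 47.1 CPM, and for Nedd4 447 to 753 and 492 to 1256 CPM. Another 5 partners fell: Fgf12 and Fgf13, which encode intracellular modulators of sodium channels, Cntn1, S100a10 and Nedd4l. Fgf13 fell by 2.08 (SE 0.455, adjusted p = 0.00545). Between the axons Fgf13 and Sptbn4 were called, both with a higher soma-relative level in central than in peripheral axons, by 1.85 ± 0.592 and 3.52 ± 1.03 (7.2% of all genes were called higher). In central axons against somas Fgf13 itself was not called (-0.39 ± 0.388). Nfasc and Nrcam are also made by Schwann cells, whose markers rose beside them in peripheral axons, and the part of those cells was not tested.

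Patterns of the remaining members were matched to other genes in the same way as for Scn10a, over 16 and 15 libraries. The closest gene was Cdkl2 for Scn9a (mean correlation 0.91), Slitrk4 for Scn1a (0.91), Phyhipl for Scn3a (0.87), Mdga1 for Scn8a (0.83), Pitpnm2 for Scn2b (0.86), Bicd1 for Scn3b (0.89) and Cdhr1 for Scn4b (0.85). For Scn4b the next was Asic3 (0.83), an acid-sensing channel gene. Mdga1 was also the second gene for Scn3a (0.86), and Scn3a and Scn8a had correlations of 0.87 and 0.77 with each other. These values describe libraries that share batch, tissue and depth.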

How the data were processed

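The deposited data are raw counts of reads per gene in 2 tables, 1 per batch, with a column for each library per the file headers and no normalisation. The submitters' processing notes name STAR 2.7.2b and mm10. The counting program and its handling of strand and shared reads are not given in the sources used here, and per the labels the RNA input was very small, so that counts carry amplification noise. Groups came from genotype, tissue and batch in the labels. In batch 1 a pair of soma control columns shares a name and was called a and b. All 55536 identifiers matched GENCODE M21.

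The genes and lists were chosen with earlier results of these data known, and all 9 members are named throughout. Each comparison was fitted over all genes with edgeR 4.0.16 (R 4.3.3): filterByExpr (10 counts, 15 in total), TMM, glmQLFit and glmQLFTest on the groups compared, with Benjamini-Hochberg adjustment over all genes tested and a threshold of 0.05. SE is the log2 fold change divided by the root of the F statistic. The code was tested on simulated counts. Alternatives were RLE factors, library totals alone, no filter, DESeq2 1.42.0, limma 3.58.1 voom, all groups of a batch in 1 fit, a replicate block, and each library left out. CPM used library totals and RPKM merged exon lengths. For likeness, genes with 10 counts in 8 libraries of each batch were ranked by the mean of 2 Pearson correlations of log2(CPM + 1), and the first 3 were kept per member. Columns of the same group differed in the counts of at least 23.2% of genes. Floors (3 counts) cover counting error only, since no molecular identifiers are named in the labels. Some items of these lists and sequences are not reported here.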

Additional observations from a re-analysis of the deposited data

Results flagged for a closer look

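Single libraries stood apart from their group, by Dixon's criterion on CPM, in 10 of 62 tests. For normally distributed values chance alone gives about 1 in 20. Whether CPM is so distributed was not tested, and all 10 flagged values were the highest of their group. The number of flags is therefore not read as an excess over chance. Most flagged libraries were controls. Among batch 1 soma controls, library a held 277 CPM of Scn1a (the other 3 at most 18.4) and 567 CPM of Scn11a (at most 90.6), and library b held 13.0 CPM of Scn4b (at most 0.108). Among central axon controls, library 4 held 29.9 CPM of Scn10a (at most 2.10), and library 1 held 123 CPM of Scn3b (at most 14.0) and 7.11 CPM of Scn4b (at most 0.123). Batch 2 soma control 7 held 598 CPM of Scn10a (at most 303) and 93.3 CPM of Scn4b (at most 22.8). In Cre libraries, peripheral axon library 2 held 151 CPM of Scn9a (the others at most 62.9) and batch 1 soma library 4 held 148 CPM of Scn2b (at most 63.6).

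For Scn3a the soma-relative level differed between central and peripheral axons by its own test (4.24 on the log2 scale, adjusted p = 0.00953, edgeR). That test used Cre libraries only, and the level in central axon Cre libraries was not above that of their controls, as given above.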

How the results depend on the processing

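Counts of called members are given here with the share of all genes called in the same fit. In central axons against controls 1 member, Scn11a, was called without the filter (0.121%), by DESeq2 (1.52%), by limma voom (0.966%) and with all 4 groups in 1 fit (0.00651%), and none with any library left out (0 in all 8 fits, 0 to 0.0327%). In batch 2 somas 1 was called with library totals alone (1.68%) and 2 by DESeq2 (7.61%), and 0 to 4 with libraries left out (0 to 11.7%). In central axons against somas 1 was called with library totals alone (16.8%), 6 without the filter (8.27%), 5 by DESeq2 (21.7%), 6 by limma voom (16.3%), 0 with all 4 groups (0.0977%) and 1 to 5 with libraries left out (5.5% to 18.1%). In peripheral axons against somas 0 were called with library totals alone (30.9%), 6 by limma voom (38.9%), 0 with all 4 groups (8.93%) and 0 to 4 with libraries left out (20% to 37.6%). For the Cre-dependent axon-soma difference of batch 1, RLE factors (0.00651%), no filter (1.05%) and DESeq2 (3.69%) called 1, limma voom 2 (2.33%), and leaving out libraries 0 to 1 (0 to 6.83%). Between the axons no filter (7.45%), DESeq2 (19.7%) and limma voom (19%) called 2, and leaving out libraries 1 to 2 (7.97% to 16.5%).

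Same-numbered libraries did not deviate together in every pair: no comparison had all its correlations of deviations above 0.1 (lowest -0.12, highest 0.24). Between central axon and batch 1 soma Cre libraries the mean correlation was 0.12 for same numbers and -0.04 for other numbers. Some shared deviation is thus possible there. With the replicate block 6 members were called in central axons against somas, where 15.4% of all genes were: Scn3a and Scn1a higher, and Scn11a, Scn10a, Scn4b and Scn2b lower. It called 0 in each of the 4 Cre-against-control comparisons (at most 0.00705% of genes). Peripheral axons and their somas share no replicate number.

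Signs turned for estimates that were not called. In central axons against controls Scn1a became -0.026 with RLE factors and with DESeq2, -0.018 with library totals alone and -0.015 with all groups in 1 fit, and -0.0040, -0.34, -0.39 and -0.30 without Cre libraries 3 or 4 or control libraries 3 or 4, in a range of -0.39 to 1.21, and Scn4b ran from -1.10 (without Cre library 1) to 5.83. In batch 2 somas Scn10a became -0.030 with library totals alone, and Scn11a 0.018 by limma voom and -0.22 to 0.26 with libraries left out (0.26 without control library 7). Scn3b in central axons against somas ran from -0.21 to 0.36. Between the axons Scn10a became 0.036 without the filter and ran from -1.07 to 0.58 (0.18, 0.14 and 0.24 without central axon libraries 2, 3 or 4, 0.06 without batch 1 soma 4 or batch 2 soma 5, 0.58 without peripheral axon library 2), Scn11a from -1.04 to 0.052 (0.03 and 0.0014 without central axon libraries 3 or 4) and Scn4b from -2.80 to 0.18. The cause was not tested. Library totals alone moved the median of all genes in central axons against somas from 0.05 to 0.50, and in peripheral axons from -0.03 to 0.17. In batch 1 somas against controls it moved from -0.45 to 0.36. Low counts limit Scn4b in axons and Scn1a and Scn3a in sciatic nerve.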
